A study of Oryctolagus cuniculus with 134 samples.

Results

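The genes described here are 6 members of the complement system, chosen by name: C1QA, C1QB and C1QC, which encode the 3 chains of C1q, the central component C3, and the anaphylatoxin receptors C3AR1 and C5AR1. The deposited tables list 29587 genes, of which 14716 carry a symbol, and 5 of the 6 members were found by their symbol. These were C1QA (ENSOCUG00000029367), C1QB (ENSOCUG00000015143), C1QC (ENSOCUG00000015138), C3AR1 (ENSOCUG00000007438) and C5AR1 (ENSOCUG00000022167). C3 was not analysed here. The study asked how dietary lipids and irradiation of the heart affect the rabbit aorta and heart valves. RNA was sequenced from the aorta ring (Ao) and the aortic (AoV), mitral (MV), pulmonary (PV) and tricuspid (TV) valves of 27 male New Zealand White rabbits, giving 134 libraries. Rabbits entered the protocols at 12 weeks of age and were followed for 16 weeks. Ctrl rabbits ate standard chow without any supplement. Lard rabbits ate a diet with 5% lard and CHT rabbits one with 0.3% cholesterol, and both were given vitamin D2 in their drinking water at 25000 U per day for each 2.5 kg of body weight during the opening 15 days. IR/CHT rabbits had the CHT diet and vitamin D2, and after 8 weeks received 24 Gy of X-rays in 3 fractions of 8 Gy directed at the aortic valve and the thoracic aorta. Each tissue had 7 Ctrl, 7 Lard, 6 CHT and 7 IR/CHT libraries, except for 6 Ctrl libraries in MV. Rabbits given vitamin D2 alone or irradiation alone were not analysed here, so in comparisons with Ctrl the diet and the vitamin cannot be told apart. In comparisons of IR/CHT with Ctrl, diet, vitamin and irradiation changed together.

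Complement is a cascade of plasma and tissue proteins that tags microbes, dying cells and modified lipoproteins for removal. C1q, a bundle of collagen-like arms built from the A, B and C chains, starts the classical pathway by binding antibodies and altered surfaces. Unlike most complement proteins, which the liver secretes, C1q is made mainly by macrophages and dendritic cells in tissues, and the genes of its 3 chains lie side by side in the genome, also on the rabbit assembly mOryCun1.1. Cleavage of C3 and C5 along the cascade releases the small peptides C3a and C5a, which act on the G protein-coupled receptors encoded by C3AR1 and C5AR1 on myeloid cells and draw and activate them. In atherosclerotic lesions, C1q, C3 fragments and both receptors are known from macrophage-rich areas.

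Library depth ran from 13564979 to 50577676 read pairs assigned to genes (median 18235577). Levels are counts scaled to library size (CPM), with 1 set of TMM factors for all libraries. All Ao libraries were on plate 2, all CHT libraries of AoV and MV were on plate 1, and the other valve groups were split over both plates. The profile of each library was compared with the mean profile of the same treatment in each tissue. By this measure 14 of 134 libraries were closer to another tissue than to their own, 5 of them by more than 0.2 in Pearson's r. The TV Ctrl library L168 correlated at 0.79 with AoV and at -0.37 with the other TV libraries. The TV Lard library L272 and the PV Lard library L271, from the same rabbit, were each closer to the other's labelled valve, and the MV Ctrl libraries L183 and L262 were closer to TV and AoV. The PV IR/CHT library L176 had smooth muscle markers summing to 19802 CPM, against 11108 CPM or more in Ao. These 6 libraries stand apart, and results that rest on them are given with and without them. The PV IR/CHT library L275 is not among them, but correlated at -0.03 with PV and at most at -0.01 with any tissue.

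On chow, all 5 members were higher in AoV than in Ao, against 29.2% of all genes tested called in this direction, and no member was called between the valves compared. C1QB ranged from 3.66 to 13.8 CPM in Ao, with a median of 6.36, and from 14.1 to 35 CPM in AoV, with a median of 25.2. The 2 tissues did not overlap for C1QB, and the log2 difference was 1.52 ± 0.26 (SE, adjusted p = 1.16e-05, edgeR). The difference was 1.37 ± 0.39 for C1QA, 1.48 ± 0.44 for C5AR1 and 1.86 ± 0.38 for C3AR1, and that of C1QC lay between those of C1QA and C5AR1, with adjusted p between 0.000141 and 0.00551, and for these 4 genes the libraries overlapped. In whole tissue, fewer cells that express a gene and less RNA per cell cannot be told apart. The summed CPM of 12 macrophage genes (of 15 listed) moved the same way, with a median of 134 CPM in Ao and 420 CPM in AoV. Endothelial and fibroblast markers were higher in AoV as well (5 of 6 and 3 of 4, with 1 endothelial marker lower), the latter with medians of 1661 and 5857 CPM. Smooth muscle markers were lower in 4 of 5, with a median of 101210 CPM in Ao and sums of 462 to 1404 CPM in AoV. The part of these cell types in the difference was not tested.

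Mean C1QA on chow decreased from AoV (34.8 ± 18.1 CPM, SD, n = 7) over TV (30.2 ± 15.3), PV (25 ± 7.91) and MV (23 ± 9.68, n = 6) to Ao (12.7 ± 8.34). C1QB was ordered PV, AoV, TV, MV and Ao, and C1QC was ordered AoV, TV, PV, MV and Ao. The place of TV for C1QC rested on L168, since without it TV (49.6 ± 10.3 CPM, n = 6) came after PV (57.8 ± 16.7). The orders of the other 4 members were the same without L168, L183 and L262. For the receptors, C3AR1 was ordered PV (2.98 ± 0.868 CPM), TV (2.5 ± 0.796), AoV (1.81 ± 1.02), MV (1.44 ± 0.692) and Ao (0.47 ± 0.196). C5AR1 ran from MV (3.28 ± 1.14 CPM) over AoV (2.97 ± 1.26), TV (2.86 ± 1.55) and PV (1.91 ± 0.565) to Ao (1 ± 0.948). Of 5 members, 0 were called between MV and AoV (1.39% of all genes higher), between PV and AoV (18.4%) and between TV and MV (3.95%). DESeq2 also called 0 in each, and 1 member had an unadjusted p under 0.05 in each. The closest to the threshold was C3AR1, with a log2 difference of 0.73 ± 0.35 in PV against AoV and an adjusted p of 0.0725. With the rabbit as a block it was 0.79 ± 0.33 with an adjusted p of 0.0359, and without the AoV Ctrl library L240 or the PV Ctrl library L200 the adjusted p was 0.0213 or 0.0415.

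**Figure D1:**
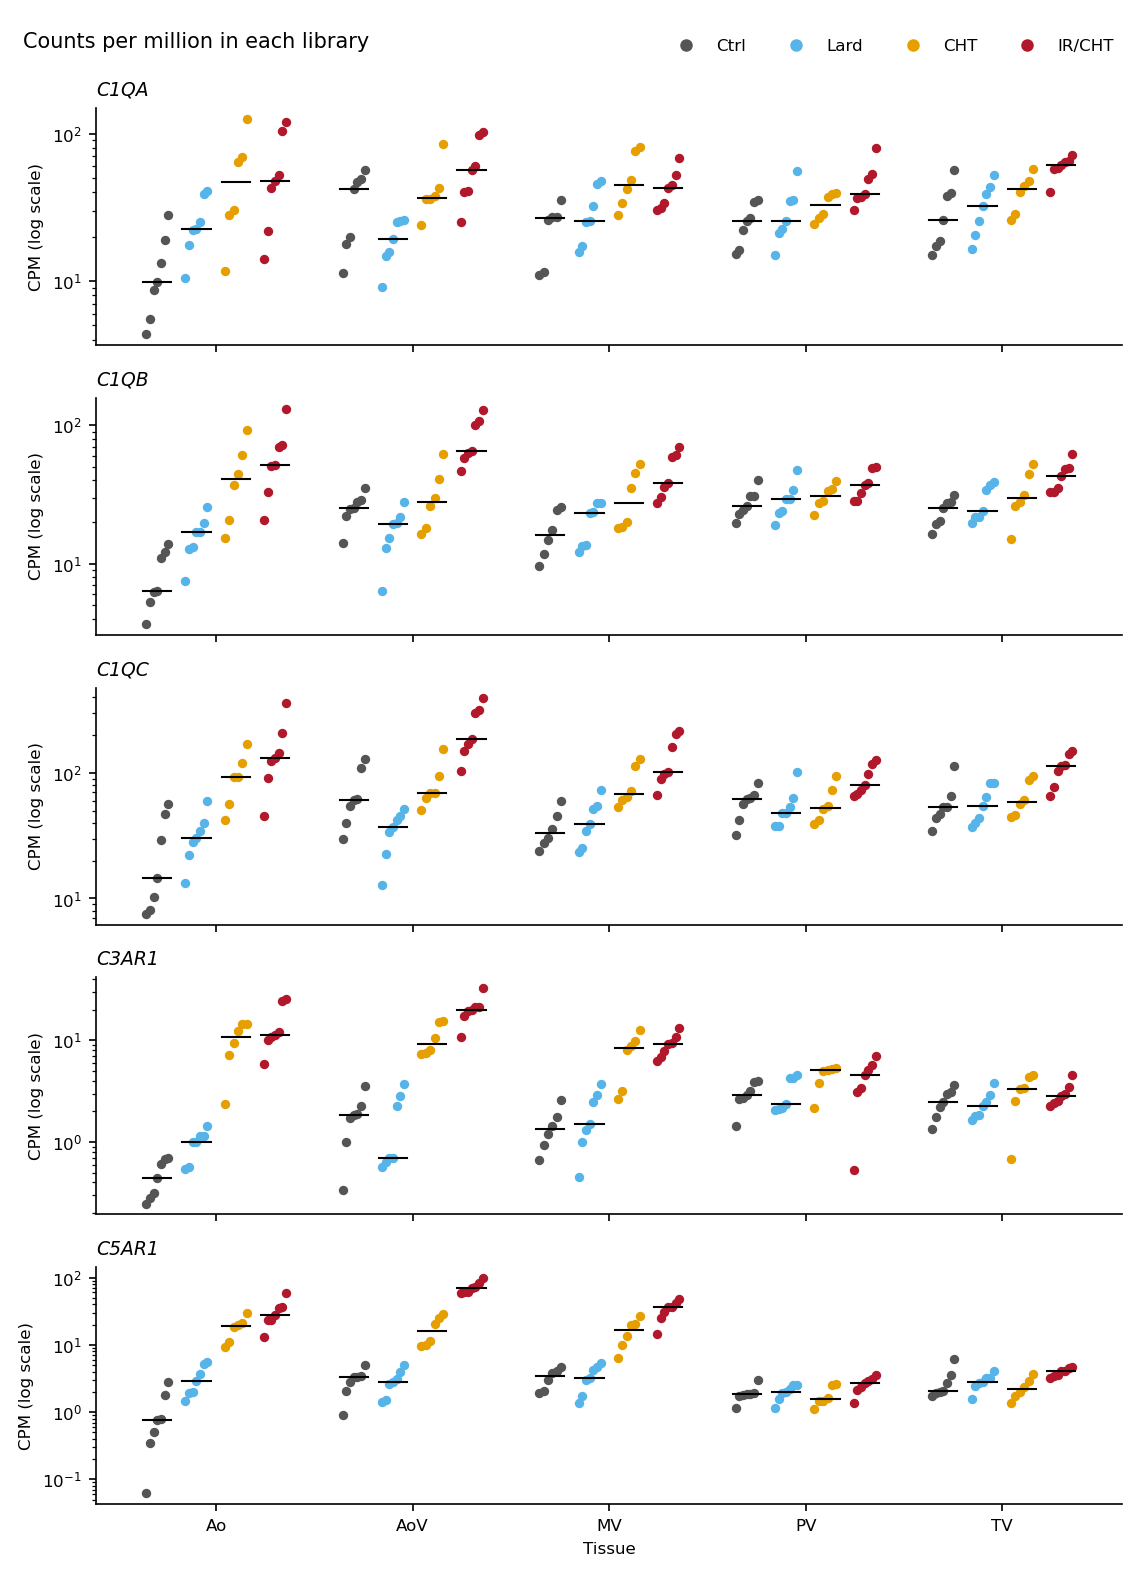
Level of the 5 complement genes in each of 134 libraries (CPM, log axis) by tissue and treatment; each point is 1 library and each black line a group median. In Ao, AoV and MV the receptors C3AR1 and C5AR1 lie higher in CHT and IR/CHT libraries than in Ctrl libraries, while in PV and TV their groups overlap.

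In the aorta, all 5 members rose on CHT and on IR/CHT, with the larger log2 fold changes in the receptors. Of all genes tested, 14.2% were called higher and 5.18% lower on CHT, and 22.2% higher and 12.2% lower on IR/CHT. C3AR1, the receptor of C3a, stood at 0.248, 0.447 and 0.702 CPM (lowest, median and highest library) in Ctrl, which was 4 to 11 read pairs, at 2.38, 10.9 and 14.5 CPM in CHT and at 5.86, 11.4 and 25.6 CPM in IR/CHT. Every CHT and every IR/CHT library was above every Ctrl library. The log2 fold change was 4.46 ± 0.42 on CHT (adjusted p = 1.14e-08) and 4.98 ± 0.42 on IR/CHT (adjusted p = 8.25e-10). C5AR1, the receptor of C5a, stood at 0.0621, 0.766 and 2.77 CPM in Ctrl, 9.16, 19.2 and 30.1 CPM in CHT and 13.1, 27.8 and 58.5 CPM in IR/CHT, again without overlap with Ctrl. Its log2 fold changes were 4.24 ± 0.50 (adjusted p = 3.56e-07) and 5.02 ± 0.51 (adjusted p = 1.40e-08).

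The C1q chains of the aorta had smaller log2 fold changes than the receptors, a difference between genes that was not tested. C1QC stood at 7.55, 14.6 and 56.6 CPM in Ctrl and at 45.8, 132 and 358 CPM in IR/CHT. In CHT its lowest library was at 41.9 CPM and the mean was 95.8 ± 46.1 CPM (SD, n = 6). In 5 of 6 CHT libraries and 6 of 7 IR/CHT libraries it was above every Ctrl library. Its log2 fold change was 2.01 ± 0.48 on CHT (adjusted p = 0.00269) and 2.74 ± 0.49 on IR/CHT (adjusted p = 4.63e-05). C1QB changed by 2.49 ± 0.42 and 2.94 ± 0.42, without overlap with Ctrl, and C1QA by 2.18 ± 0.52 and 2.26 ± 0.51. None of the 5 was called between IR/CHT and CHT (0.162% of all genes higher), where the log2 differences were 0.07 to 0.78 and no unadjusted p was under 0.05 by edgeR, and DESeq2 called 0. Macrophage markers moved with these values: 10 of 12 rose on CHT and 12 of 12 on IR/CHT, and their summed CPM had a median of 134 in Ctrl, 996 in CHT (510 to 1343) and 1459 in IR/CHT (827 to 2449), with every treated library above the Ctrl libraries. Endothelial markers rose too, 5 of 6 in both comparisons. Smooth muscle markers, the largest sum in Ao, had a median of 101210 CPM in Ctrl, 52733 CPM in CHT and 29479 CPM in IR/CHT, and 3 and 4 of 5 fell. Fibroblast markers had medians of 1661, 3267 and 4476 CPM, with 1 and 2 of 4 higher, and T cell markers 1.02, 3.22 and 6.71 CPM, with 0 and 3 of 3 higher. Heart muscle markers summed to 421 to 690 CPM in Ctrl and 137 to 409 CPM in CHT, and in IR/CHT they ran up to 2705 CPM. The part of these cell types in the result was not tested.

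On the Lard diet, no member was called in the aorta by edgeR (2.57% of all genes higher), while 3 had an unadjusted p under 0.05 and DESeq2 called 1. C5AR1 came closest, at 1.45, 2.9 and 5.61 CPM against 0.0621, 0.766 and 2.77 CPM in Ctrl. Its log2 difference was 1.70 ± 0.48 with an adjusted p of 0.0505, and it was called when any 1 of 9 libraries was left out, among them the Ctrl library L553 (adjusted p = 0.0156). The differences of the other members were 0.40 to 1.05. Macrophage markers had a median sum of 289 CPM on Lard against 134 CPM, with 8 of 12 higher. Endothelial markers summed to 205 to 488 CPM on Lard, above every Ctrl library, with 1 of 6 higher. Medians on Lard and in Ctrl were 3363 and 1661 CPM for fibroblast markers, 71968 and 101210 CPM for smooth muscle markers and 400 and 605 CPM for heart muscle markers, none of which was called. The part of these cell types was not tested. Set against Lard, CHT called 4 of 5 members higher (7.33% of all genes): C1QB by 1.55 ± 0.41, C1QC by 1.61 ± 0.48, C3AR1 by 3.41 ± 0.39 and C5AR1 by 2.54 ± 0.45 on the log2 scale. C1QA differed by 1.17 ± 0.51 and was not called (adjusted p = 0.142), except in 1 model of all 5 tissues (adjusted p = 0.0281). Without the CHT library L559 the calls of C1QB and C1QC were lost (adjusted p = 0.0524 and 0.0779). The C1QC call was also lost without the CHT library L574 or the Lard libraries L576 or L577 (adjusted p = 0.0613, 0.0539 and 0.0554) and without a filter on low counts (0.0648).

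In the aortic valve C3AR1 and C5AR1 rose on CHT and no C1q chain was called, and the difference between these genes was not tested. The receptors were 2 of 5 members called higher, against 8.42% of all genes, and no member fell, against 3.48%. C3AR1 stood at 0.341, 1.86 and 3.59 CPM in Ctrl and at 7.27, 9.29 and 15.7 CPM in CHT, a log2 fold change of 2.62 ± 0.45 (adjusted p = 0.000154). C5AR1 stood at 0.911, 3.27 and 4.97 CPM in Ctrl and at 9.63, 15.8 and 29 CPM in CHT, a log2 fold change of 2.63 ± 0.32 (adjusted p = 1.18e-06). The 2 groups did not overlap for either receptor. C1QA, C1QB and C1QC differed from Ctrl by 0.39 ± 0.36, 0.40 ± 0.30 and 0.34 ± 0.34 on the log2 scale, with adjusted p of 0.456, 0.359 and 0.498. C1QC, for example, was at 69.4 ± 36.6 CPM in Ctrl (SD) and 83.5 ± 37.2 CPM in CHT, from lowest values of 30 and 51.1 CPM, and the groups overlapped. The CHT libraries were all on plate 1. Against the Ctrl libraries of plate 1 alone, C3AR1 and C5AR1 differed by 3.42 and 3.10 and the C1q chains by 0.29 to 0.90, none of which was called.

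With irradiation added, all 5 members were higher than Ctrl in the aortic valve, where 21.1% of all genes were called higher and 21.7% lower. C5AR1 stood at 58.1, 69 and 98.8 CPM, so that its lowest IR/CHT library was above the highest CHT library, and it had a log2 fold change of 4.71 ± 0.35 against Ctrl (adjusted p = 2.70e-11). C3AR1 stood at 10.8, 19.8 and 32.7 CPM, with 3.59 ± 0.46 (adjusted p = 3.96e-07). C1QC ranged from 104 to 393 CPM, with 1.85 ± 0.34, and C1QB stood at 47.1, 64.7 and 129 CPM, with 1.78 ± 0.30. C1QA, at 25, 56.6 and 103 CPM, had the smallest difference, 0.92 ± 0.35 (adjusted p = 0.0304). This call was lost without any 1 of 5 libraries, the IR/CHT libraries L174 and L194 and the Ctrl libraries L182, L198 and L277 (adjusted p between 0.0503 and 0.0733). Within plate 1 and within plate 2 its difference was 1.32 and 0.76, with adjusted p of 0.0765 and 0.182, and with only the 2 groups in the model its adjusted p was 0.0708. The other 4 members kept their calls on each plate alone.

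IR/CHT was also compared with CHT, which has the same diet and vitamin. In the aortic valve 3 of 5 members were higher with irradiation, against 9.9% of all genes, and none was lower, against 9.85%. C5AR1 differed by 2.08 ± 0.32 (adjusted p = 4.89e-05), C1QC by 1.51 ± 0.35 (adjusted p = 0.00261) and C1QB by 1.38 ± 0.31 (adjusted p = 0.00196). C3AR1 differed by 0.97 ± 0.43 (adjusted p = 0.11) and C1QA by 0.53 ± 0.36 (adjusted p = 0.315). C3AR1 was called with only these 2 groups in the model (0.92 ± 0.26, adjusted p = 0.0215) and in 1 model of all 5 tissues (0.98, adjusted p = 0.0393). Within plate 1 the same 3 were called, C5AR1 by 2.16 and C1QB by 1.42. Whether this step differed between valve and aorta was not tested. Macrophage markers summed to a median of 420 CPM in Ctrl, 1145 CPM in CHT (908 to 1317) and 2710 CPM in IR/CHT (2322 to 3649), without overlap between the groups, and 8 and 10 of 12 rose on CHT and IR/CHT. T cell markers were far lower, at 0.15 to 1.57, 0.652 to 5.4 and 6.2 to 26.5 CPM, and 1 and 3 of 3 rose. Mast cell markers summed to 0.192 to 3.22 CPM in Ctrl, 0.76 to 2.78 CPM in CHT and 3.68 to 6.29 CPM in IR/CHT, where 2 of 3 rose. Heart muscle markers had a median of 698 CPM in Ctrl, 50.1 CPM in CHT and 43.8 CPM in IR/CHT, and 4 of 5 fell in both comparisons. B cell markers had medians of 7.8, 2.88 and 2.28 CPM, and these groups overlapped. The part of these cell types in the values was not tested.

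On Lard, 0 of 5 members were called in the aortic valve (0.026% of all genes higher) and DESeq2 called 0, but 2 had an unadjusted p under 0.05, both with lower values. C1QC stood at 12.9, 36.8 and 51.6 CPM, a log2 difference of -0.95 ± 0.33 (adjusted p = 0.372), and C1QA differed by -0.81 ± 0.35 (adjusted p = 0.44). The lowest C1QC values came from the Lard libraries L152 and L173, which also had the lowest sums of endothelial markers (39.1 and 65.7 CPM) and of macrophage markers in that group. The macrophage sum was 120 to 698 CPM on Lard, with a lower median than the 420 CPM of Ctrl, and no macrophage marker was called. Heart muscle markers had a median of 64.8 CPM against 698 CPM in Ctrl, and the part of these cells was not tested. Between CHT and Lard, 4 of 5 members were called higher on CHT (7.16% of all genes). The log2 differences were 2.71 ± 0.45 for C3AR1, 2.61 ± 0.32 for C5AR1, 1.29 ± 0.34 for C1QC and 1.20 ± 0.36 for C1QA, while C1QB missed the threshold at 0.90 ± 0.30 (adjusted p = 0.0662). Without the CHT library L151, C1QA and C1QC were no longer called (adjusted p = 0.131 and 0.0658). C1QA was also lost without any 1 of the Lard libraries L152, L173, L190 and L248 (adjusted p between 0.057 and 0.0746). C1QB was called without the CHT libraries L169 or L228 or the Lard library L232 (adjusted p = 0.0486, 0.0349 and 0.0279) and in 1 model of all 5 tissues (0.0385). On plate 1 alone the receptors were called, and C1QC and C1QA were not (adjusted p = 0.186 and 0.214).

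In the mitral valve, 4 of 5 members rose on CHT (4.98% of all genes higher, 0.64% lower) and 5 of 5 on IR/CHT (11.1% higher, 6.65% lower). C5AR1 stood at 1.92, 3.43 and 4.71 CPM in Ctrl, 6.37, 16.6 and 26.8 CPM in CHT and 14.7, 37 and 48.1 CPM in IR/CHT. No treated library overlapped with Ctrl, and the log2 fold changes were 2.32 ± 0.36 (adjusted p = 8.59e-05) and 3.38 ± 0.37 (adjusted p = 1.99e-07). C3AR1 stood at 0.668, 1.33 and 2.62 CPM in Ctrl, 2.66, 8.36 and 12.8 CPM in CHT and 6.28, 9.15 and 13.3 CPM in IR/CHT, with 2.41 ± 0.43 and 2.69 ± 0.43. C1QC stood at 24, 33 and 60.2 CPM in Ctrl, 54, 68.2 and 129 CPM in CHT and 66.7, 101 and 216 CPM in IR/CHT, with 1.18 ± 0.32 (adjusted p = 0.0224) and 1.87 ± 0.32 (adjusted p = 8.66e-05). C1QA changed by 1.19 ± 0.33 (adjusted p = 0.024) and 0.95 ± 0.32 (adjusted p = 0.0272). C1QB changed by 0.89 ± 0.32 on CHT, which was not called (adjusted p = 0.105), and by 1.43 ± 0.31 on IR/CHT.

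Several of the C1q calls in the mitral valve depended on single libraries, while no single library ended those of C1QB and C1QC on IR/CHT. Endothelial markers summed to 72.3 to 124 CPM in 3 of 6 Ctrl libraries and to 911 to 1001 CPM in the other 3, and C1QC was 24 to 30.2 CPM in the former and 35.8 to 60.2 CPM in the latter. Leaving out the Ctrl library L199 or L156 or the CHT library L157 or L266 ended the calls of C1QA and C1QC on CHT, and leaving out L262 ended that of C1QC (adjusted p between 0.0515 and 0.0864 in all). Without L183 and L262, which stand apart, 3 members were called on CHT, against 3.84% of all genes in that fit, and C1QA was lost (adjusted p = 0.0602). All 5 stayed called on IR/CHT (10.3% of all genes). On IR/CHT the C1QA call was lost without L199, L156 or the IR/CHT library L175 (adjusted p between 0.0575 and 0.0642) and in 1 model of all 5 tissues (0.0522), and on CHT it was lost with only the 2 groups in the model (0.0564). On plate 1 alone, C1QC was not called on CHT (1.26, adjusted p = 0.0715), and all 5 members were called on IR/CHT. On plate 2 alone, which holds 3 IR/CHT and 2 Ctrl libraries, only C5AR1 was called on IR/CHT, with a log2 difference of 3.32, and C1QA differed by 0.34, C1QB by 1.02, C1QC by 1.71 and C3AR1 by 2.21. Macrophage markers summed to 190 to 629 CPM in Ctrl, 597 to 1220 CPM in CHT and 886 to 1923 CPM in IR/CHT, and 9 of 12 rose in both comparisons, or 7 and 9 without L183 and L262. Smooth muscle markers had a median of 220 CPM in Ctrl (164 to 439), 669 CPM in CHT (460 to 1337) and 597 CPM in IR/CHT, with 2 of 5 higher in both. T cell markers summed to 0.517 to 1.74, 0.285 to 6.55 and 2.86 to 16.5 CPM, with 1 of 2 tested higher in both. The part of these cell types was not tested.

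No member was called in the mitral valve between IR/CHT and CHT (0.0522% of all genes higher) by edgeR or DESeq2, though 2 had an unadjusted p under 0.05. The log2 difference of C5AR1 was 1.06 ± 0.33 (adjusted p = 0.168) and that of C1QC 0.70 ± 0.31 (adjusted p = 0.337). None was called on Lard (0% of all genes) by either tool, no unadjusted p was under 0.05, and the differences were 0.05 to 0.41. CHT was above Lard for C3AR1, by 1.99 ± 0.40, and C5AR1, by 2.28 ± 0.34, 2 of 5 members against 5.29% of all genes. C1QC missed the threshold with 0.97 ± 0.30 (adjusted p = 0.0511) and was called when any 1 of 15 libraries was left out (lowest adjusted p 0.0186, without the Lard library L540), by DESeq2 (0.0247) and with its size factors (0.049). On plate 1 alone C3AR1 was not called between CHT and Lard (1.86, adjusted p = 0.0788).

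In the pulmonary valve no member was called in any comparison. This was so on CHT (0.0484% of all genes higher), Lard (0%) and IR/CHT (0.581%), between IR/CHT and CHT (0.0761%) and between CHT and Lard (0.0346%). C5AR1 stood at 1.17, 1.83 and 3.05 CPM in Ctrl, 1.1, 1.55 and 2.64 CPM in CHT and 1.38, 2.75 and 3.6 CPM in IR/CHT, and the 3 groups overlapped. Its log2 differences were -0.09 ± 0.26 on CHT and 0.45 ± 0.25 on IR/CHT. C3AR1 differed by 0.58 ± 0.35 and 0.50 ± 0.34. On IR/CHT, 3 members had an unadjusted p under 0.05. They were the C1q chains, with C1QA at 0.89 ± 0.25 (adjusted p = 0.0911), C1QC at 0.63 ± 0.24 (adjusted p = 0.197) and C1QB at 0.44 ± 0.18 (adjusted p = 0.246). C1QA stood at 15.2, 25.4 and 35.2 CPM in Ctrl and 30.3, 39 and 79.7 CPM in IR/CHT, and 6 of 7 IR/CHT libraries were above every Ctrl library. DESeq2 called C1QA alone, and with the plate as a covariate edgeR called it too (0.93, adjusted p = 0.0464). The highest value came from L176, which stands apart, and without L176 the difference of C1QA was 0.71 (adjusted p = 0.191). Without L275, whose profile resembled no tissue, it was 0.88 (adjusted p = 0.144). In that fit C1QC and C3AR1 each differed by 0.70, and no member was called. Between IR/CHT and CHT, 2 members had an unadjusted p under 0.05, and on CHT, on Lard and between these diets none had. DESeq2 called 0 members in these 4 comparisons.

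In the tricuspid valve no member was called either with all libraries included. The shares of all genes called higher were 0.0816% on CHT, 0% on Lard, 0.109% on IR/CHT, 0% between IR/CHT and CHT and 0.0272% between CHT and Lard. By unadjusted p under 0.05 there were 3 members on IR/CHT, 2 between IR/CHT and CHT and 0 in the other 3 comparisons, and DESeq2 called 1 member on IR/CHT and none elsewhere. The comparison of IR/CHT with Ctrl turned on 1 library. L168, whose profile resembled the aortic valve, had the highest TV Ctrl values of C1QA (57.1 CPM), C1QC (113 CPM) and C5AR1 (6.07 CPM). C1QC reached 65.1 CPM and C5AR1 3.53 CPM in the other 6 Ctrl libraries, against 65.2 to 150 CPM and 3.2 to 4.71 CPM in IR/CHT.

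Without the libraries that stand apart, 4 of 5 members were higher in the tricuspid valve on IR/CHT, and 5.43% of all genes were called higher. C1QA differed by 1.25 ± 0.27 (adjusted p = 0.0124), C1QB by 0.91 ± 0.24 (adjusted p = 0.0312), C1QC by 1.17 ± 0.23 (adjusted p = 0.00702) and C5AR1 by 0.79 ± 0.24 (adjusted p = 0.0433). With all libraries the same differences were 0.97 ± 0.28, 0.85 ± 0.23, 0.89 ± 0.26 and 0.45 ± 0.28, with adjusted p between 0.151 and 0.73. C3AR1 differed by 0.35 ± 0.31 without and by 0.26 ± 0.30 with these libraries. Leaving out L168 alone gave the same 4 calls. On plate 1 alone, which does not hold L168, C1QB and C1QC were called, by 1.04 and 1.13. Macrophage markers summed to 430 to 776 CPM in Ctrl and 315 to 839 CPM in IR/CHT, and without the libraries that stand apart 4 of 11 tested rose (CD14, CSF1R, CD68 and TYROBP), against 1 with all libraries. L168 had the lowest of the Ctrl sums, and the part of these cells was not tested. The same exclusion left 0 members called in the pulmonary valve.

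**Figure D2:**
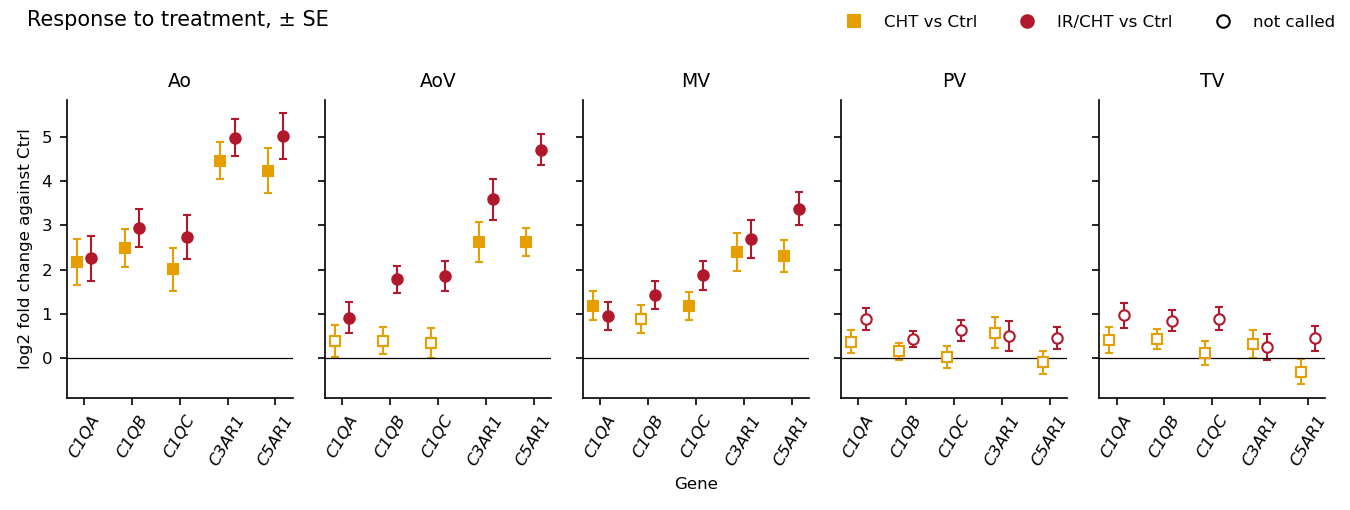
Response of the 5 genes to CHT (squares) and IR/CHT (circles) in each tissue, as the log2 fold change against Ctrl with its SE (edgeR, all libraries); filled symbols were called and open ones were not. C3AR1 and C5AR1 changed by 2.32 or more in Ao, AoV and MV, and the C1q chains by 0.34 to 0.40 on CHT in AoV.

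Whether a response differed between tissues was tested directly, as a log2 difference of 2 responses, called at an adjusted p under 0.05. The main test treated the tissues of the same rabbit as independent, and the rabbit as a block was run as an alternative. Between AoV and PV, the arterial valves of the left and the right heart, both receptors responded more in AoV. On CHT the difference was 2.02 ± 0.58 for C3AR1 (adjusted p = 0.029) and 2.70 ± 0.41 for C5AR1 (adjusted p = 7.25e-06), 2 of 5 members against 4.01% of all genes. On IR/CHT it was 3.03 ± 0.56 for C3AR1, 4.19 ± 0.40 for C5AR1, 1.28 ± 0.36 for C1QB and 1.15 ± 0.42 for C1QC, 4 of 5 against 16.8% of all genes. C1QA differed by -0.05 ± 0.44 on IR/CHT, and within each tissue alone its response was 0.92 in AoV and 0.89 in PV. The median difference of all genes on IR/CHT was -0.19.

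Between MV and TV, the inflow valves, both receptors responded more in MV. The difference was 2.07 ± 0.53 for C3AR1 and 2.60 ± 0.46 for C5AR1 on CHT (2.14% of all genes) and 2.45 ± 0.51 and 2.93 ± 0.44 on IR/CHT (6.32%). No C1q chain was called in either comparison. On IR/CHT, C1QC had an adjusted p of 0.11 and was called with the rabbit as a block (0.75 ± 0.26, adjusted p = 0.0428). C1QB differed by 0.45 ± 0.40 on CHT and 0.61 ± 0.38 on IR/CHT, and C1QA by 0.76 ± 0.44 and -0.01 ± 0.42. Without the libraries that stand apart, C3AR1 was no longer called on CHT (adjusted p = 0.0794).

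Between Ao and AoV, all 5 differences on CHT were above 0, at 1.67 to 2.14, and C1QB was called (2.14 ± 0.53, adjusted p = 0.0106), 1 of 5 against 4.25% of all genes. The other 4 had adjusted p between 0.0533 and 0.0761. With the rabbit as a block all 3 C1q chains were called (adjusted p = 0.0366, 0.00227 and 0.0131 for C1QA, C1QB and C1QC), and DESeq2 called all 5 members. On IR/CHT, C1QB (1.29 ± 0.50, adjusted p = 0.0419) and C3AR1 (1.52 ± 0.58, adjusted p = 0.0399) were called, 2 of 5 against 21.7% of all genes, while the median of all genes was 0.29. With the block the 3 C1q chains were called instead (adjusted p = 0.0248, 0.0127 and 0.0412), and C3AR1 was not (adjusted p = 0.0564). Neither C1QB nor C3AR1 was called with the size factors of DESeq2 (adjusted p = 0.0582 and 0.0518) or without a filter on low counts (0.1 and 0.085), and C3AR1 was not with the plate as a covariate (0.0673). C5AR1 differed by 0.45 ± 0.55. Between AoV and MV, 0 of 5 members were called on CHT (0% of all genes) and on IR/CHT (7.26%). By unadjusted p under 0.05 there were 0 and 1, and by DESeq2 0 and 1. The 1 was C5AR1 on IR/CHT, at 1.28 ± 0.46 (adjusted p = 0.0502), which was called with the rabbit as a block (1.41 ± 0.43, adjusted p = 0.0145).

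Each member was also set against the macrophage markers, as the log2 ratio of its CPM to the summed CPM of the 12 macrophage genes in the same library. These ratios are descriptions without a test, given as the mean difference from Ctrl with the SD between libraries, averaged over both groups as variances. In AoV the C1q chains had lower ratios on CHT, with differences of -1.18 ± 0.77 for C1QA, -1.37 ± 0.64 for C1QB and -1.26 ± 0.76 for C1QC. On IR/CHT they were -2.08 ± 0.86, -1.30 ± 0.57 and -1.16 ± 0.83. No single library moved these by more than 1.5 times. In Ao the same differences lay between -0.85 and -0.53 on CHT and between -1.41 and -0.66 on IR/CHT. Without the CHT library L573 those on CHT were -0.53 for C1QA and -0.32 for C1QB, and without the Ctrl library L552 C1QC was at -0.39 on CHT and -0.44 on IR/CHT. In MV they lay between -0.57 and -0.20 and between -1.03 and -0.22, and that of C1QA on CHT was 0.04 without L262. The groups overlapped in all of these. The receptors ran the other way. The ratio of C5AR1 was higher by 1.59 ± 0.63 and 1.66 ± 0.63 in Ao, 0.92 ± 0.61 and 1.72 ± 0.45 in AoV and 0.80 ± 0.53 and 1.29 ± 0.48 in MV, and in Ao on both treatments and in AoV on IR/CHT no treated library overlapped with Ctrl. That of C3AR1 was higher by 1.17 ± 0.59 and 1.05 ± 0.48 in Ao, 1.06 ± 0.44 and 0.65 ± 0.55 in AoV and 0.83 ± 0.49 and 0.64 ± 0.34 in MV, with no overlap in Ao on IR/CHT. On Lard the mean log2 ratio of C5AR1 was also higher in Ao (-6.64, Ctrl -7.35) and AoV (-6.42, Ctrl -7.05), but not in MV (-6.86, Ctrl -6.77). C3AR1 was lower on Lard in Ao (-8.19, Ctrl -7.89) and higher in AoV (-7.45, Ctrl -7.83) and MV (-7.76, Ctrl -7.95). The C1q chains differed on Lard by -0.53 to -0.09 in Ao and by -0.30 to 0.03 in AoV. In TV on IR/CHT the ratios of the C1q chains were higher than in Ctrl by 0.73 or more, with overlap. These differences include L168, which stands apart. Among the Ctrl libraries it had the highest C1QA and C1QC and the lowest macrophage sum, and so the highest ratios of both genes. In PV on IR/CHT the differences of 0.94 for C1QA, 0.49 for C1QB and 0.69 for C1QC turned on L275. Its macrophage sum was the lowest of the group, below the 606 to 778 CPM of the other 6 libraries, and its endothelial markers summed to 86.5 CPM against 1009 to 1347 CPM. Without L275 they were 0.60, 0.24 and 0.45. Averaged over all libraries, MRC1 and CSF1R were the most abundant of the 12 markers, while the highest group means were those of CD68 and CTSS. With CD68, CSF1R and CD163 alone all 5 members had the same direction in AoV on CHT and IR/CHT. These genes are themselves among the 12 markers, so this is not a separate check.

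**Figure D3:**
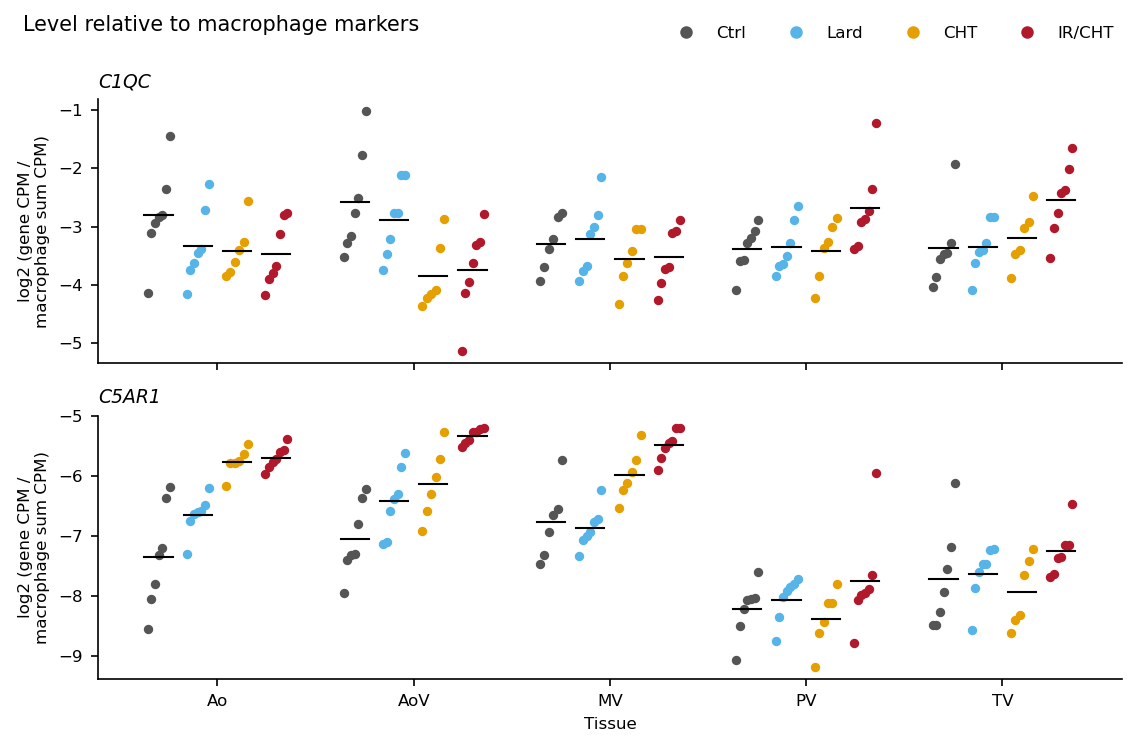
Log2 ratio of C1QC (top) and C5AR1 (bottom) to the summed macrophage markers in each library, by tissue and treatment; each point is 1 library and each line a group mean. From Ctrl to IR/CHT in AoV the mean changed by -1.16 for C1QC and by 1.72 for C5AR1.

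Other blood cells carry the receptors as well. Neutrophils express C5AR1, and 11 of 13 neutrophil genes were found, whose sum was 0.749 to 35 CPM over all libraries with a median of 4.29. On IR/CHT, 3 of 4 tested neutrophil genes rose in Ao (22.2% of all genes) and 2 of 6 in AoV (21.1%). On CHT none did in these tissues (14.2% and 8.42%). On Lard 2 of 4 did in Ao (2.57%), where 1 library reached 35 CPM. Their part in the C5AR1 values was not tested. Liver markers summed to at most 8.73 CPM over all libraries. In AoV they summed to 1.34 to 4.69 CPM in Ctrl and 0.318 to 1.08 CPM in IR/CHT, without overlap, and their part was not tested.

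The 3 C1q chains did not keep a fixed proportion from rabbit to rabbit. The share of C1QA in the summed C1q counts depends on gene length and annotation, and is compared here between libraries alone. It ranged from 8.39% to 45.8% over the libraries, each with at least 303 C1q read pairs, and followed the animal. After the group mean of its tissue and treatment was subtracted from each library, the share in 1 tissue correlated with that in another tissue of the same rabbit in all 10 pairs of tissues, with r between 0.77 and 0.89 and rho between 0.76 and 0.87 over 26 to 27 rabbits. The permutation p was at most 2.00e-05 in each (100000 permutations, smallest possible 1e-05) and the adjusted p at most 2.00e-05. This test was added after the shares had been seen, so its p describes a pattern found in the same data. Without the 2 rabbits farthest from the median, r was 0.71 to 0.86, and with the plate means removed as well it was 0.70 to 0.89. The median share of a rabbit's tissues ran from 15.7% to 39.7%, and the spread between the tissues of 1 rabbit had a median of 9.65 percentage points.

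**Figure D4:**
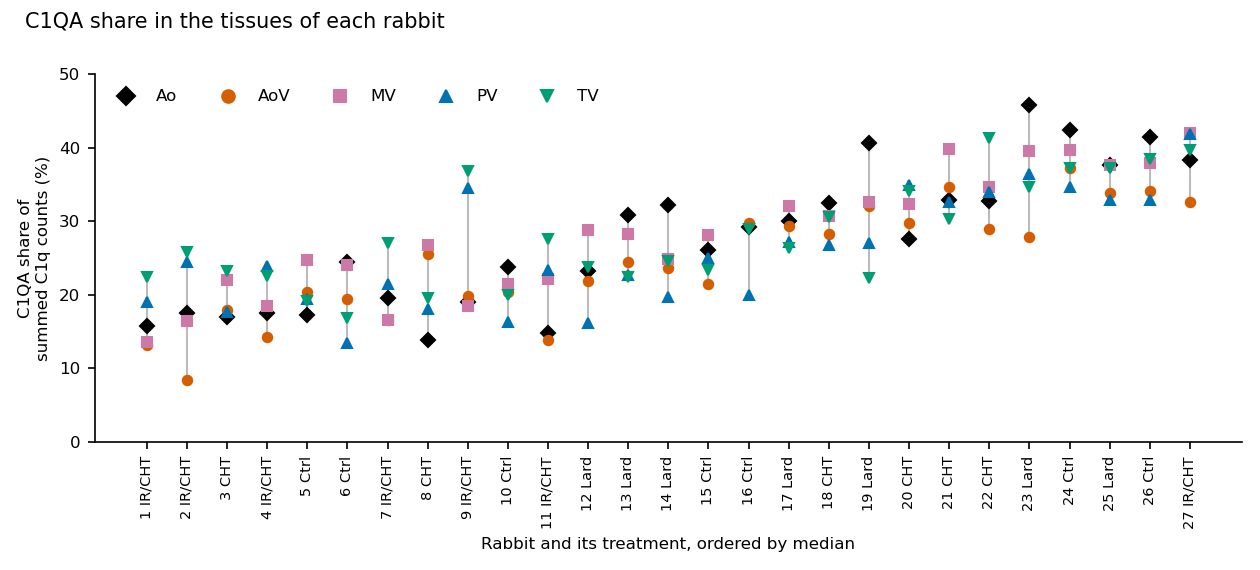
Share of C1QA in the summed counts of the 3 C1q chains (percent) in each tissue of 27 rabbits, ordered by the rabbit's median; symbols mark tissues and grey lines the range within a rabbit. Rabbit medians rise from 15.7% to 39.7%, and in IR/CHT rabbits the AoV symbol lies below the PV symbol.

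Within rabbits, the C1QA share also moved with treatment, a pattern chosen after the values were seen and given without a test. In 7 of 7 IR/CHT rabbits the share was lower in AoV than in PV of the same animal, with differences (AoV minus PV) between -16.1 and -5.01 percentage points and a median of -9.55. Among Ctrl rabbits this was so in 1 of 7, with a median of 2.5 points, in 1 of 7 Lard rabbits (2.12) and in 2 of 6 CHT rabbits (0.85). The share was lower in Ao than in PV in 1 of 7 Ctrl, 0 of 7 Lard, 4 of 6 CHT and 7 of 7 IR/CHT rabbits, with medians (Ao minus PV) of 7.72, 8.24, -1.04 and -6.41 points. It was lower in MV than in TV in 1 of 6 Ctrl, 0 of 7 Lard, 3 of 6 CHT and 6 of 7 IR/CHT rabbits, with medians (MV minus TV) of 3.62, 5.07, -0.558 and -8.88 points. In each of these pairs of tissues the median of the CHT rabbits, which were not irradiated, lay between those of Lard and IR/CHT. In AoV the mean share was 26.1% ± 7.44 in Ctrl, 27.5% ± 5.58 in CHT and 16.9% ± 7.74 in IR/CHT, and in PV 23.1% ± 8.15, 27.3% ± 7.84 and 26.9% ± 8.2.

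Of 58 complement genes listed, 30 were found by symbol, which left 25 besides the members, and the rest were not analysed here. In Ao, 12 of 19 tested were called higher and 0 lower on CHT (14.2% and 5.18% of all genes), and 12 higher and 1 lower on IR/CHT (22.2% and 12.2%). In AoV these counts were 6 and 0 of 17 on CHT (8.42% and 3.48%) and 8 and 4 on IR/CHT (21.1% and 21.7%), so that the share called lower on IR/CHT was near that of all genes. In MV they were 7 and 0 of 18 on CHT (4.98% and 0.64%) and 8 and 3 on IR/CHT (11.1% and 6.65%). The strongest were the genes of the complement receptors CR3 and CR4, namely ITGAM, ITGAX and their shared beta chain ITGB2, which phagocytes use to bind C3 fragments. In AoV, ITGAM was at 6.49 ± 2.55 CPM in Ctrl (SD), 145 ± 55.7 in CHT and 437 ± 88.1 in IR/CHT, with log2 fold changes of 4.55 ± 0.33 (SE) and 6.18 ± 0.35. VSIG4, a C3b receptor of resident macrophages, was at 24.5 ± 5.56, 46.7 ± 8.73 and 160 ± 37.6 CPM, with a log2 fold change of 2.81 ± 0.30 on IR/CHT. C5AR2, the other receptor of C5a, rose on IR/CHT in Ao, AoV and MV, for example from 0.686 ± 0.653 to 3.4 ± 0.933 CPM in AoV.

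Genes of the classical pathway next to C1q, and of the alternative pathway and its control, were also tested within each tissue, and differences between tissues in their responses were not tested. C1R and C1S, the proteases that C1q activates, rose in Ao on Lard (0.93 ± 0.26 and 0.88 ± 0.23), CHT (1.67 ± 0.27 and 1.39 ± 0.24) and IR/CHT (1.77 ± 0.26 and 1.48 ± 0.24). In AoV, C1R rose on CHT (0.70 ± 0.21), and both were lower with irradiation than on CHT alone (-0.62 ± 0.21 and -0.77 ± 0.25), opposite to C1QB and C1QC in the same libraries. C2, the next protease, rose in Ao on CHT and IR/CHT (1.68 ± 0.38 and 2.65 ± 0.38), in AoV on IR/CHT (2.01 ± 0.34) and in MV on both (1.13 ± 0.33 and 1.59 ± 0.32). CFP, properdin of the alternative pathway, rose in all 3 tissues on both treatments, with log2 fold changes between 1.07 and 3.13. The inhibitor clusterin, CLU, rose in Ao (1.26 ± 0.24 and 1.34 ± 0.24 on CHT and IR/CHT) and fell in AoV by 0.99 ± 0.30 and in MV by 0.82 ± 0.26 on IR/CHT. SERPING1, the C1 inhibitor, was abundant (519 ± 96.2 CPM in Ao on chow), and its difference on CHT in Ao was -0.06 ± 0.13. CD93, named as a C1q receptor at first, rose in Ao and MV on both treatments and in AoV on IR/CHT. C5, the source of C5a, was at 0.484 ± 0.344 CPM in AoV on chow and 0.402 ± 0.35 CPM on IR/CHT. Also lower on IR/CHT, and named after their values were seen, were CR2 in Ao (-3.13 ± 0.52), MASP1 and SUSD4 in AoV (-1.42 ± 0.25 and -1.31 ± 0.33) and MV (-0.69 ± 0.16 and -0.89 ± 0.27), and COLEC12 in AoV (-0.97 ± 0.20). In the right-sided valves on IR/CHT, ITGAM rose in PV (1.42 ± 0.21) and TV (1.74 ± 0.24), and C1R, C1S, CFP and ITGB2 rose in PV. Without the libraries that stand apart, 3 of 16 were called higher in PV (ITGAM, C1R and CFP), against 0.252% of all genes in that fit, and 6 of 17 in TV (ITGAM, ITGB2, CFP, C1R, C1S and VSIG4), against 5.43%. In MV on CHT 3 of 18 were called higher (ITGAM, ITGAX and ITGB2), against 3.84%. The MV calls on CHT of C2, CFP, VSIG4 and CD93 were lost (adjusted p = 0.0594, 0.109, 0.0756 and 0.0622), as was that of CLU on IR/CHT (-0.74 ± 0.30, adjusted p = 0.0849), and the other 10 MV calls on IR/CHT were kept, 8 higher and 2 lower (10.3% and 6.01% of all genes).

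**Figure D5:**
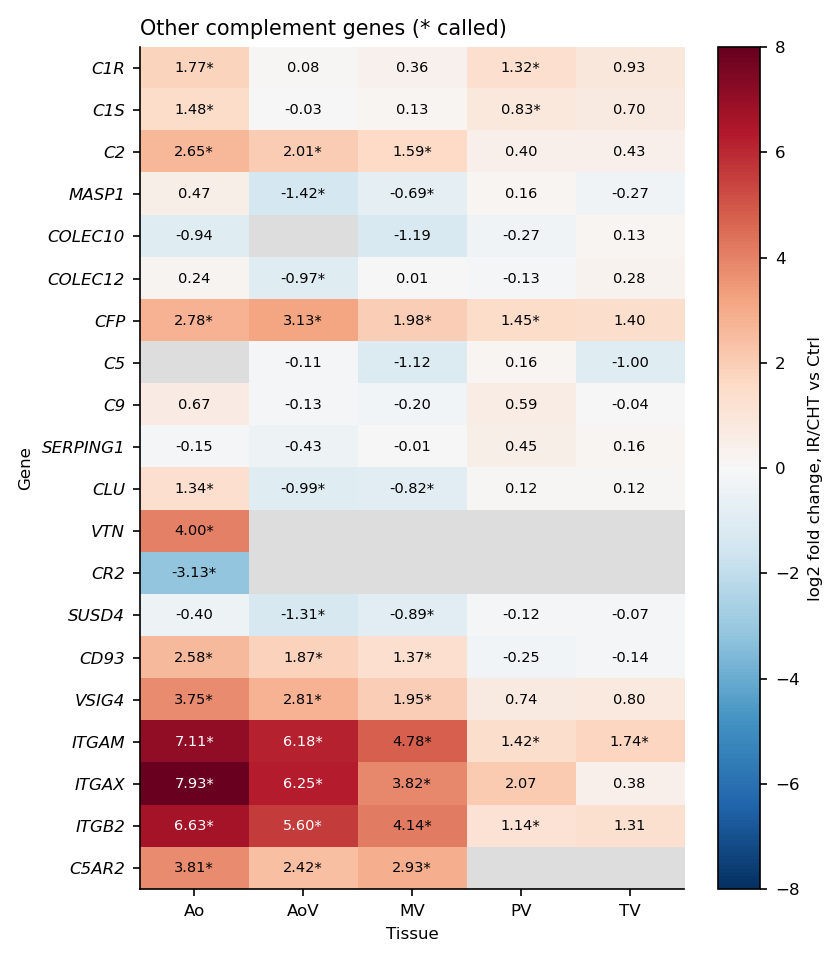
Log2 fold change of IR/CHT against Ctrl (edgeR) for the other complement genes that passed the filter on low counts in at least 1 tissue; colour and number give the value, a star a call, and grey a gene not tested there. ITGAM, ITGAX and ITGB2 have values of 3.82 or more in Ao, AoV and MV, and CLU is 1.34 in Ao, -0.99 in AoV and -0.82 in MV.

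The genes whose pattern was most like each member were taken from 11228 other genes with a symbol, as a description without a test. Over the mean log2 CPM of the 20 groups of tissue and treatment, C1QB and C1QC were each other's closest gene (r = 0.98), followed for both by APOBEC1 (0.96). C1QA was closest to NR2E1 (0.92), C1QC and C1QB (both 0.91). C3AR1 was closest to TLR1 (0.99), AOAH and SLC7A7 (both 0.98), and C5AR1 to VAV1, UCP2 and ARHGAP30 (all 0.99). With the group means removed, over 134 libraries, C1QB and C1QC remained closest (0.82), with CSF1R and PLTP behind them. C1QA was then closest to PLTP (0.71), SCARF1 (0.68) and MMRN2 (0.67), and C1QB and C1QC ranked 30 and 29 for it (both 0.60). C3AR1 was closest to AIF1 (0.68), and C5AR1 to CSF1R (0.83). Groups of different tissues hold libraries of the same rabbits, and libraries share plates, so these points are not independent.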

How the data were processed

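RNA was extracted from whole dissected aorta ring and valves, and libraries were made from 10 ng of RNA with a stranded total RNA kit and sequenced on a NovaSeq6000. The authors counted paired reads per gene with the nf-core rnaseq pipeline on the rabbit genome OryCun2.0 with Ensembl annotation and deposited raw counts. The study's methods give default settings of the pipeline apart from read trimming, and no option for strand is named. The submitters' processing notes also name bcl2fastq 2.20. Libraries held 13564979 to 50577676 counts, which limits the precision of low genes such as C3AR1 in Ao on chow.

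Groups came from the labels, and rabbits from the column names. The 6 members and all gene lists were chosen with earlier results of these data known. Within each tissue, counts were tested with edgeR 4.0.16 in R 4.3.3 (filterByExpr, TMM scaling, robust quasi-likelihood test, Benjamini-Hochberg adjustment over all genes tested). A gene was called at an adjusted p under 0.05 and a change of more than 1.5-fold. The SE of an edgeR log2 difference was derived from the test, as its absolute value divided by the square root of the F statistic. Differences between tissues in a response, in 1 model of both tissues, were called by the adjusted p alone. This model and that of the tissues on chow held no term for the rabbit. The study's methods used DESeq2, which was run here as an alternative (1.42.0). CPM were placed on 1 TMM scale over 134 libraries, and log2 values used a prior count of 2. The other alternatives were scaling by size factors, no filter on low counts, other samples in the model, the plate, the rabbit as a block, each library left out and, added after the data were seen, the libraries that stand apart left out and, for the ratios to macrophage markers, each library left out. Shares of C1QA were compared by permutation tests in Python (numpy 2.4.6, pandas 2.3.3, 100000 permutations, two-sided), which were added after the data were seen.

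Whether the rabbit pairs the tissues was checked on deviations from group means. The median correlation within a rabbit was 0.201 for Ao and AoV (over 0.1 in 20 of 27 rabbits), 0.439 for AoV and MV (26 of 26), 0.175 for AoV and PV (18 of 27) and 0.279 for MV and TV (19 of 26), against -0.0155 to 0.00724 between rabbits. On simulated counts for CHT against Ctrl in AoV (15408 genes), edgeR found 18% of genes changed by 1 and 76% of genes changed by 2 on the log2 scale, with 3 false calls.

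The named genes were the members, the other complement genes with the 3 smallest p-values in a comparison or from a list of pathway components, inhibitors and receptors, the 3 genes most like each member, and the 2 most abundant markers of a cell type. Other genes are named as chosen after their values were seen.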

Additional observations from a re-analysis of the deposited data

Results flagged for a closer look

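In 5 of 100 groups of 1 gene, tissue and treatment the highest library lay far from the others by Dixon's criterion, and chance alone gives about 1 in 20. C1QA reached 84.9 CPM in 1 AoV CHT library, with the next at 42.6 CPM. C1QC reached 102 CPM in 1 PV Lard library (next 63.5 CPM) and 113 CPM in 1 TV Ctrl library (next 65.1 CPM). C5AR1 reached 3.05 CPM in 1 PV Ctrl library (next 1.93 CPM) and 6.07 CPM in 1 TV Ctrl library (next 3.53 CPM). The TV Ctrl library is L168 in both cases, whose profile was closer to AoV than to TV.

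Of 40 tests of a difference between tissues in a response, 13 passed an adjusted p of 0.05 (edgeR), all with the higher response in the tissue named before the other. Between Ao and AoV the log2 difference was 2.14 for C1QB on CHT, and 1.29 for C1QB and 1.52 for C3AR1 on IR/CHT. Between AoV and PV it was 2.02 for C3AR1 and 2.70 for C5AR1 on CHT, and 1.28 for C1QB, 1.15 for C1QC, 3.03 for C3AR1 and 4.19 for C5AR1 on IR/CHT. Between MV and TV it was 2.07 for C3AR1 and 2.60 for C5AR1 on CHT, and 2.45 for C3AR1 and 2.93 for C5AR1 on IR/CHT. These tests treated the tissues of the same rabbit as independent. With the rabbit as a block (edgeR), C3AR1 between Ao and AoV on IR/CHT was not called (adjusted p = 0.0564). C1QA and C1QC were then called between Ao and AoV on both treatments. So were C5AR1 between AoV and MV (adjusted p = 0.0145) and C1QC between MV and TV (adjusted p = 0.0428) on IR/CHT.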

How the results depend on the processing

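Under alternatives other than leaving out 1 library, 23 counts of members called moved by more than 1.5 times from the reported count, all given here, and no log2 difference of a called member changed its sign. On Lard in Ao, DESeq2, its size factors and 1 model of all 5 tissues each called 1 member in place of 0. With plate 1 alone, 2 members were called between CHT and Lard in AoV and 1 in MV, and with plate 2 alone 1 was called on IR/CHT in MV. On IR/CHT in PV, DESeq2 and the plate as a covariate called 1, and in TV DESeq2 called 1, plate 1 alone 2 and the exclusion of the libraries that stand apart 4. For CHT between Ao and AoV, DESeq2 called 5 and the rabbit as replicate block 3. For IR/CHT between Ao and AoV, size factors and no filter called 0 and the plate as a covariate 1. For IR/CHT between AoV and MV, DESeq2, the plate, the block and the exclusion each called 1, and for CHT between MV and TV the exclusion called 1. On chow, the plate and the block each called 1 between PV and AoV. The block changed no other count by more than 1.5 times. Leaving out each library in turn gave 0 to 1 members on Lard in Ao, 2 to 4 for CHT against Lard in Ao and 2 to 5 in AoV, 2 to 4 on CHT in MV, 0 to 4 on IR/CHT in TV and 0 to 1 between PV and AoV on chow. The cause of these changes was not tested. C3AR1 in Ao on chow rested on 4 to 11 read pairs per library and C5AR1 on 1 to 44, so their folds and ratios there are imprecise.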
